A study of Homo sapiens with 38 samples.

Results

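To compare column- and SDS-based DNA extraction at 13 PCR cycles, the H3K27ac libraries of the PCR cycle and extraction experiment that were amplified for 13 cycles were taken from the series. These were 8 of 38 libraries, 4 with column and 4 with SDS extraction, and they were chosen by their labels alone. All were CUT&Tag libraries from K562 cells, a human leukaemia line with erythroid and megakaryocyte features that carries the BCR-ABL1 fusion, and none was treated with trichostatin A. Each extraction was run once with each of 4 H3K27ac antibodies, Abcam-ab177178, Abcam-ab4729 and Active Motif 39133 at 1:100 and Diagenode C15410196 at 1:50. Extraction was therefore compared within each antibody, which gave 4 pairs of 1 library against 1 library. The antibodies are different reagents, and no source used here says whether the libraries of a pair came from separate cultures, so the spread between pairs holds antibody and culture together.

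H3K27ac is the acetylation of a lysine in the tail of histone H3. It marks nucleosomes at active promoters and enhancers, and wide stretches of it lie over strongly active genes of a cell type. In CUT&Tag an antibody on the mark brings the transposase Tn5 to the chromatin, and the transposase cuts the DNA there and adds adapters, so that the fragments can be amplified by PCR. The fragments must first be freed from the transposase. In the SDS procedure the beads were heated in a small volume of SDS buffer, the detergent was then quenched, and PCR followed without purification. In the column procedure the sample was treated with SDS and proteinase K, and the DNA was purified on a spin column before PCR.

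What was compared was the SEACR peak list of each library on the hg19 build. SEACR joins neighbouring covered bases into a block and keeps the blocks with the highest summed fragment coverage, and that sum is called signal here. It grows with both the height and the width of a peak. A peak was placed at a promoter where it came within 1.5 kb of an annotated gene start, coding or noncoding, and was otherwise distal. Only the outermost annotated start of each gene was used. A peak at an inner start could therefore count as distal, and its gene as not called. Peaks of the 8 lists that overlapped by at least 1 bp were joined into 15572 merged regions. The sequences shown are the strongest points of some of the regions called with a single extraction, and of some called in all 8 libraries where signal differed most. For each, 200 bp of the forward strand of hg19 is given 5′ to 3′, with AGATAA (the GATA motif), TGACTCA (the AP-1 motif) or GGGCGG (the GC box) in capitals wherever the letters occur on either strand.
Column-only region on chromosome 7, chr7:8343837-8344036: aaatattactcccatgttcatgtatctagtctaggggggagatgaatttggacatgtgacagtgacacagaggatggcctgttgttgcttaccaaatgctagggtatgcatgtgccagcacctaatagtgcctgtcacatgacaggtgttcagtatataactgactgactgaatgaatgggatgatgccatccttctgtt
Column-only region in the 5S RNA array, chr1:228748646-228748845: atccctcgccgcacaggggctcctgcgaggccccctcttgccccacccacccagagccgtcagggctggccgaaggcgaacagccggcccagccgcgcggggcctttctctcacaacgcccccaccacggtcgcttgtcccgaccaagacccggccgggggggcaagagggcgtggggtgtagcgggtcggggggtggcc
SDS-only region in a ZBTB17 intron, chr1:16277870-16278069: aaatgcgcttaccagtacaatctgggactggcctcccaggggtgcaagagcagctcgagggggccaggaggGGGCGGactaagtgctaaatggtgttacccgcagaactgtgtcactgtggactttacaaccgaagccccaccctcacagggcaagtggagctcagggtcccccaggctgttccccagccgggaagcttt
SDS-only region by RNU1-1, chr1:16839956-16840155: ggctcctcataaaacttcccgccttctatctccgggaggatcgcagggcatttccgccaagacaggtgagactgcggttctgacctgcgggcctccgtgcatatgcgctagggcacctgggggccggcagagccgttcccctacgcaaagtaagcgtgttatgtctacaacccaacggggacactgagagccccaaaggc
Signal lower with column, chr18:9017631-9017830: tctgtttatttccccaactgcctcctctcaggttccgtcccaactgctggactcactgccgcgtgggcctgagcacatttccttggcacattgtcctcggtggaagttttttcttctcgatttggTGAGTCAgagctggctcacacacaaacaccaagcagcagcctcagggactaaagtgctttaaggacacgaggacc
Signal lower with column, chr22:19158498-19158697: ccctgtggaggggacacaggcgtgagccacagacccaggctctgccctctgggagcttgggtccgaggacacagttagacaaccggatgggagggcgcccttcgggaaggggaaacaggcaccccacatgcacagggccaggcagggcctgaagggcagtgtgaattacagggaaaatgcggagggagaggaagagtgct
Signal higher with column, UCA1 exon, chr19:15939615-15939814: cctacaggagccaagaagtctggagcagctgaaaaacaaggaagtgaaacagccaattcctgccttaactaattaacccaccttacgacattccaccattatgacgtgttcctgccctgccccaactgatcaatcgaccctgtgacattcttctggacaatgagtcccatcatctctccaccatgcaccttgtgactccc
Signal higher with column, by NEU4, chr2:242745361-242745560: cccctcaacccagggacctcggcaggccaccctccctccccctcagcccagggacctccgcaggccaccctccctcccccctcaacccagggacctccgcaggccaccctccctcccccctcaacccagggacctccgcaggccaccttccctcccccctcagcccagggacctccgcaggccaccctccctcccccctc
Of these windows, only the ZBTB17 one held the GC box letters and only the chromosome 18 one the AP-1 letters, there on the reverse strand, and none held AGATAA. Among equally long windows at the strongest points of all 15572 merged regions, 26.2% held GGGCGG, 5.88% held TGACTCA and 8.17% held AGATAA. The NEU4 window was 75% GC and was a tandem repeat: shifted against itself by 39 bp, 84.5% of its letters matched. The second column-only window was 74.5% GC, whereas the first was 44% GC. In the window labelled UCA1 exon, the noncoding genes ENSG00000288618 and LINC01764 also overlap, so the exon may belong to either of them. Windows that overlap an untranslated region of a transcript were passed over, among them those at ZBTB5 and at HIGD2A and NOP16. The windows shown therefore do not represent all SDS-only regions.

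Fewer peaks were called after column than after SDS extraction with 3 of the 4 antibodies. With ab177178, column extraction gave 8219 peaks and SDS extraction 8161. With ab4729 the numbers were 4670 and 6277, with Active Motif 3927 and 6111, and with Diagenode 3797 and 6984. The ab177178 pair was thus nearly equal, and the gap was widest for Diagenode. On the log2 scale, column over SDS was 0.01, -0.43, -0.64 and -0.88 in that order, with a mean of -0.48 ± 0.38 (SD, n = 4 pairs), which is a 0.715-fold ratio. The exact sign-flip permutation test over these pairs, two-sided, gave p = 0.25. With 4 pairs its smallest p comes from 2 of 16 sign patterns, or 0.13, so none of the paired differences here could reach 0.05.

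The sequence under the peaks was smaller after column extraction in 4 of 4 pairs. Column libraries covered 10.5, 6.70, 3.62 and 3.43 Mb with ab177178, ab4729, Active Motif and Diagenode. SDS libraries covered 11.6, 7.02, 4.89 and 8.44 Mb. The mean log2 ratio was -0.48 ± 0.57 (SD, n = 4 pairs, exact sign-flip permutation p = 0.13, the smallest possible), and without the Diagenode pair it was -0.21. Most of the mean therefore came from 1 antibody. With the longer list of each pair shortened to the length of the other by its strongest peaks (equal list length), the ratio was -0.16 and column covered less in 2 of 4 pairs. Distal peaks were also fewer in every pair, with 3667, 1479, 1853 and 1812 after column and 3822, 2205, 2799 and 2535 after SDS extraction (mean log2 ratio -0.43 ± 0.25, SD, n = 4, exact permutation p = 0.13). Promoter peaks were fewer in 3 of 4 pairs, with 4552, 3191, 2074 and 1985 against 4339, 4072, 3312 and 4449 (-0.53 ± 0.52, SD, n = 4, exact permutation p = 0.25).

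**Figure D1:**
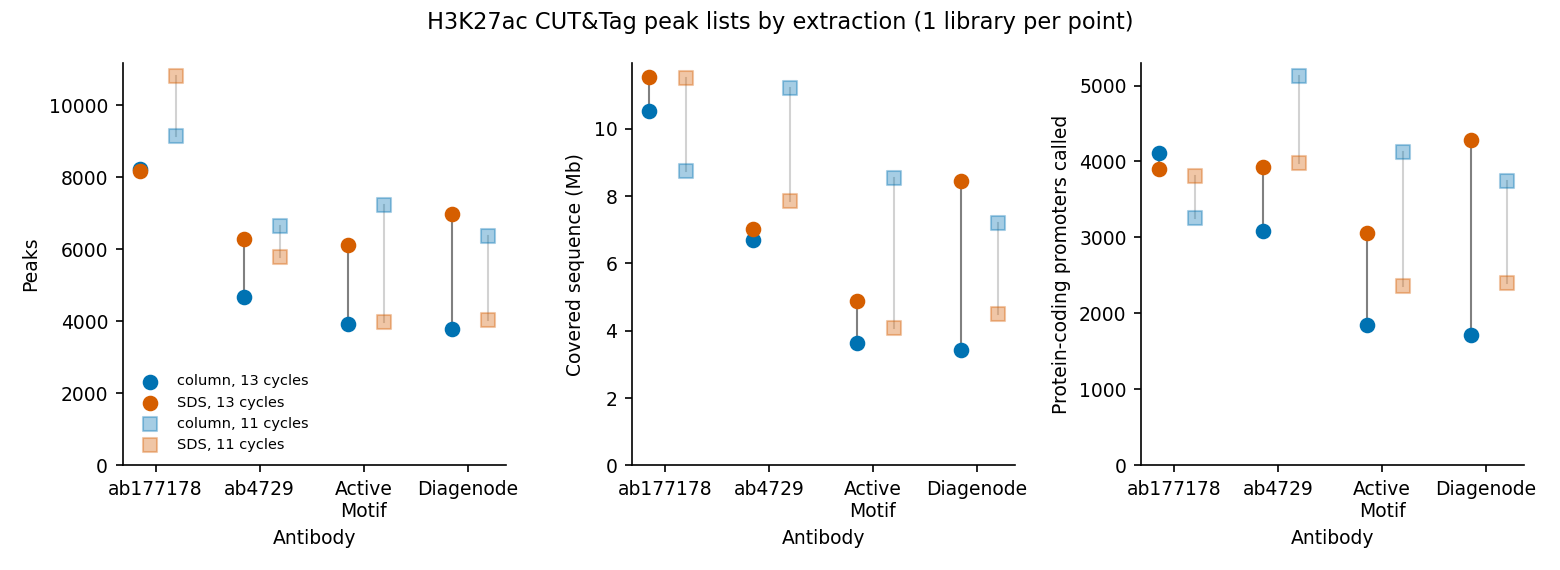
Number of peaks (left), sequence covered in Mb (middle) and protein-coding promoters called (right) by antibody, with column libraries in blue and SDS libraries in orange. Circles are 13 cycles, squares 11 cycles, each point is 1 library, and a line joins the pair of an antibody. At 13 cycles column lies below SDS except for the ab177178 peaks and promoters, and at 11 cycles column lies above SDS except for ab177178.

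The libraries differed in other ways that moved with antibody and, for Diagenode, with extraction. Mitochondrial DNA took 2.72%, 9.79%, 51.8% and 60.1% of all listed signal in the column libraries and 2.87%, 13.8%, 53.9% and 37.3% in the SDS libraries. The Diagenode pair, with the largest gap in peak number, also had the largest gap in this share. Its part in the result was not tested. The authors downsampled the reads of this experiment to a shared number before they removed duplicates. The number of unique fragments left in each library after that was not known here and cannot be told apart from the extraction. The paper lists unique fragments of these libraries at full depth, without the downsampling. There column had fewer than SDS extraction for ab4729, Active Motif and Diagenode, and more for ab177178. Peak number had the same direction in each antibody, and the link between them was not tested. The K562 identity of the libraries was checked on gene starts. Promoters of NFE2 and GATA1, transcription factors of erythroid cells, were called in 8 of 8 libraries, TAL1 in 7 and KLF1 in 6, while no member of the neuron, liver, lymphoid or keratinocyte lists was called in any library.

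The direction of the difference in peak number was not the same at 11 cycles. There the column libraries had 9140, 6644, 7225 and 6368 peaks and the SDS libraries 10821, 5790, 3989 and 4038. Column was above SDS in 3 of 4 pairs, with a mean log2 ratio of 0.37 ± 0.49 (SD, n = 4). The ratio at 13 cycles minus that at 11 cycles was -0.85 ± 0.85 (SD, n = 4 antibodies) and below 0 in 3 of 4, with p = 0.25 in the exact sign-flip permutation test (0.75 adjusted over the 3 measures compared between cycle numbers). The antibody without a negative value was ab177178. Its libraries at 11 cycles stood apart, since 73.5% and 75.9% of their peaks lay on benchmark regions against 92.7% to 98.1% in the other 11-cycle libraries. The difference was -1.22 without ab177178, -0.62 without Diagenode and -0.64 without Active Motif. The comparisons at the 2 cycle numbers share no library.

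Peak width differed between extractions in a direction that was not the same in all antibodies. The median peak was 1125 bp wide with column and 1231 bp with SDS extraction for ab177178, and 800 and 1051 bp for Diagenode. It was 1287 and 999 bp for ab4729, and 821 and 714 bp for Active Motif. Peaks were thus narrower with column in the first 2 pairs named and wider in the last 2, so that the log2 ratio averaged 0.01 ± 0.34 (SD, n = 4, exact sign-flip permutation p = 1). Promoter and distal peaks had the same pattern, with mean log2 ratios of 0.01 ± 0.34 and 0.02 ± 0.33 (SD, n = 4). At 11 cycles the ratio of the medians was -0.13, 0.34, 0.19 and 0.01 in the order ab177178, ab4729, Active Motif and Diagenode. At 13 cycles it was -0.13, 0.37, 0.20 and -0.39. The first 3 antibodies thus had nearly the same width ratio in 2 separate pairs of libraries, and Diagenode did not. The difference between the cycle numbers was -0.09 ± 0.21 (SD, n = 4, exact permutation p = 1, adjusted 1).

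Peaks of 5 kb or wider were few with either extraction. Column lists held 20, 12, 4 and 10 of them and SDS lists 32, 6, 6 and 17. None of those peaks was called with a single extraction within its antibody. The widest peak was 9627, 10066, 8143 and 12303 bp in the column lists and 9266, 7352, 7467 and 15412 bp in the SDS lists.

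**Figure D2:**
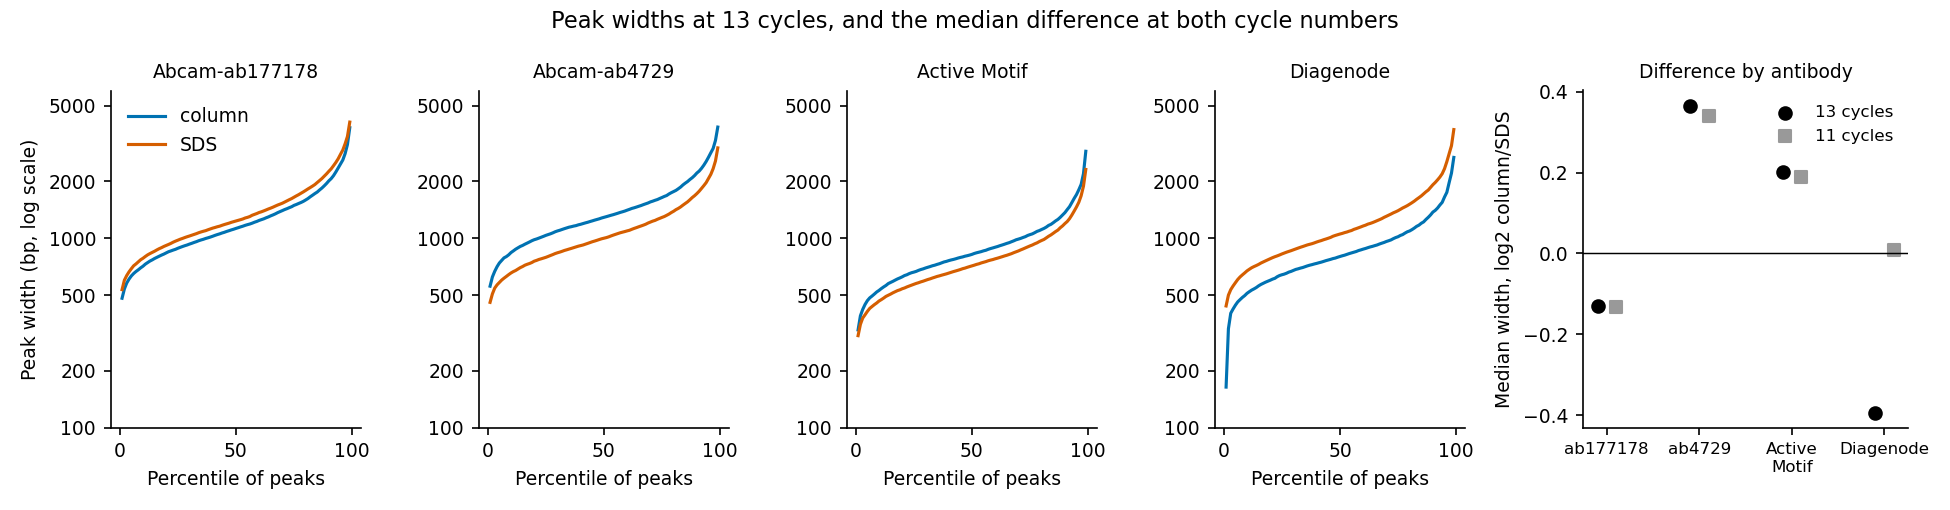
The first 4 panels show peak width in bp (log axis) against the percentile of peaks from the 1st to the 99th for each antibody at 13 cycles, column in blue and SDS in orange. The last panel shows the log2 ratio of median widths, column over SDS, at 13 cycles (black circles) and 11 cycles (grey squares). The curves lie apart over nearly their whole length, SDS above column for ab177178 and Diagenode and below it for the others, and the points of the 2 cycle numbers lie close together except for Diagenode.

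The share of peaks at promoters did not move one way. It was 55.4% with column and 53.2% with SDS extraction for ab177178, 68.3% and 64.9% for ab4729, 52.8% and 54.2% for Active Motif, and 52.3% and 63.7% for Diagenode. Each share carries a counting error of at most 1.60 percentage points (95% Clopper-Pearson interval). The Diagenode gap was the only large one. The mean difference was -1.78 ± 6.75 percentage points (SD, n = 4, exact sign-flip permutation p = 0.875), and without Diagenode it was 1.43. Windows around gene starts make up 5.46% of the genome, so all 8 lists were rich in promoters. Between cycle numbers the difference moved by -3.16 ± 5.66 points (SD, n = 4, exact permutation p = 0.5, adjusted 0.75).

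Nearly all peaks of either extraction lay on regions called in the benchmark libraries of the same cell line. Benchmark regions were 14683 merged regions called in at least 2 of 6 H3K27ac libraries that had SDS extraction and more cycles, with a median width of 4991 bp. Column peaks lay on them in 93.3%, 98.6%, 91.7% and 88.6% of cases and SDS peaks in 92.7%, 96.6%, 91.3% and 96.6%. The column share was higher in 3 of 4 pairs, and the mean difference was -1.23 ± 4.55 points (SD, n = 4, exact sign-flip permutation p = 1). It was 1.02 without Diagenode. Because all 6 benchmark libraries had SDS extraction and used 3 of the 4 antibodies, they are not neutral between the extractions. Regions of the repressive mark H3K27me3 held 4.53%, 4.50%, 7.59% and 7.40% of column peaks and 4.68%, 4.94%, 8.48% and 4.70% of SDS peaks.

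Seen from the benchmark side, each list recovered a small part of the regions. Column libraries recovered 40.4%, 26.0%, 19.1% and 17.8% of the 14683 regions, and SDS libraries 39.5%, 32.4%, 27.8% and 35.7%. The mean difference was -8.06 ± 7.77 points (SD, n = 4, exact sign-flip permutation p = 0.25), and -4.76 without Diagenode. The 8 lists together recovered 9766 regions, or 66.5%. GC content in 500 bp around the strongest point was 57.3%, 57.6%, 55.6% and 54.6% with column and 55.6%, 58.2%, 58.1% and 59.5% with SDS extraction. It was lower with column in 3 of 4 pairs, by 1.54 ± 2.81 points on average (SD, n = 4, exact permutation p = 0.375). The mean difference was -0.44 without Diagenode and -2.64 without ab177178. After adjustment over the 8 measures compared at 13 cycles, the smallest p was 0.5.

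When the longer list of each pair was shortened to the length of the other by keeping its strongest peaks, recovery became nearly equal. It was 40.2% with column and 39.5% with SDS extraction for ab177178, 26.0% and 25.6% for ab4729, and 19.1% and 19.5% for Active Motif. For Diagenode it was 17.8% and 20.9%. What remained different at equal length was the kind of peak in the Diagenode pair, where column peaks lay at promoters in 52.3% and SDS peaks in 66.3%, and on benchmark regions in 88.6% and 97.9%. The median SDS peak of Diagenode was then 1335 bp wide against 800 bp with column, and 1051 bp in the whole SDS list. Signal grows with width, so keeping the strongest peaks by itself raises the median width of the shortened list. In the other pairs the promoter shares at equal length were 55.4% and 53.2%, 68.3% and 67.5%, and 52.8% and 56.6%.

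**Figure D3:**
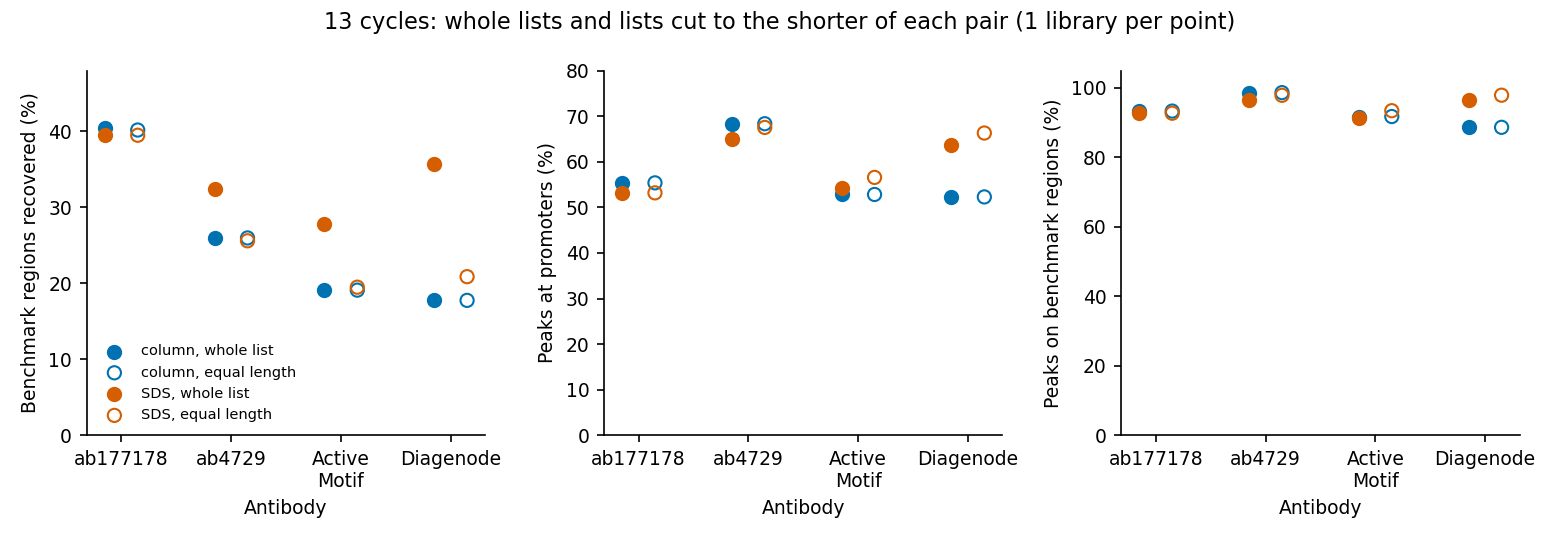
Share of the benchmark regions recovered (left), share of peaks at promoters (middle) and share of peaks on benchmark regions (right), in percent, by antibody at 13 cycles with column in blue and SDS in orange. Filled circles are whole lists, open circles are lists shortened to the same length within a pair, and each point is 1 library. At equal length the recovered shares differ by at most the 17.8% against 20.9% of Diagenode, which keeps its gap in the other 2 panels.

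Within an antibody, the stronger peaks of each list were the shared ones. Of the column peaks, 65.4%, 61.8%, 52.8% and 63.4% overlapped a peak of the SDS list of the same antibody. Of the SDS peaks, 65.1%, 48.1%, 34.9% and 32.5% overlapped a column peak. The Jaccard index, the shared base pairs over all base pairs covered by either list, was 0.377, 0.280, 0.207 and 0.196. It had a median of 0.244 over the 4 pairs of the same antibody, 0.208 over the 12 pairs of the same extraction and 0.197 over the 12 pairs that shared neither. These ranges overlapped. By this index the SDS Diagenode list was closer to the column lists of ab177178 (0.327) and ab4729 (0.302) than to the column Diagenode list (0.196). The index is limited where lists differ in size. These column lists covered 10.5, 6.70 and 3.43 Mb, and the SDS Diagenode list 8.44 Mb. Counted by peaks, 54.2%, 69.2% and 63.4% of these column lists overlapped the SDS Diagenode list, which is another order. Between the 2 replicates of a benchmark antibody the index was 0.585 to 0.666, in lists of wider peaks.

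Peaks called with a single extraction of an antibody were the weaker and narrower ones. In the ab177178 pair, column peaks shared with SDS had a median width of 1202.5 bp and a median signal at the 62.7th percentile of their list, and those that were not shared 1018 bp and the 30.3rd percentile. In the Diagenode pair the values for column were 845.5 bp and the 59.6th percentile against 741 bp and the 35.5th percentile. The same order held in all 8 lists. Of the peaks that were not shared, most still lay on benchmark regions, from 76.5% (Diagenode column) to 97.1% (Diagenode SDS). These 2 sets differed in place as well, since 41.6% of the former and 65.8% of the latter lay at promoters, with a GC content of 52.2% and 60.4%.

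The merged regions were mostly called in few libraries. Of 15572 regions, 6186 (39.7%) were called in a single library and 717 (4.60%) in all 8. The 717 were wide, at a median of 3053 bp, with 482 at promoters and 99.7% on a benchmark region. Regions of column libraries alone, in any number of them, numbered 2697, with a median width of 916 bp and 37.4% at promoters. Regions of SDS libraries alone numbered 4823, with a median width of 971 bp and 44.8% at promoters. A merged region grows with the number of libraries that call it, so these widths are not comparable with that of the 717.

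Very few regions separated the extractions in every antibody. Called in 4 of 4 column libraries and in no SDS library were 2 regions (0.0128% of all). Called in 4 of 4 SDS libraries and in no column library were 42 regions (0.270%). With at least 3 of 4 libraries in place of 4, the numbers were 29 (0.186%) and 276 (1.77%). At equal list length they were 6 and 10, and 63 and 90 with at least 3 of 4, so the excess on the SDS side was smaller there. No test was made over regions, which are not replicates.

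**Figure D4:**
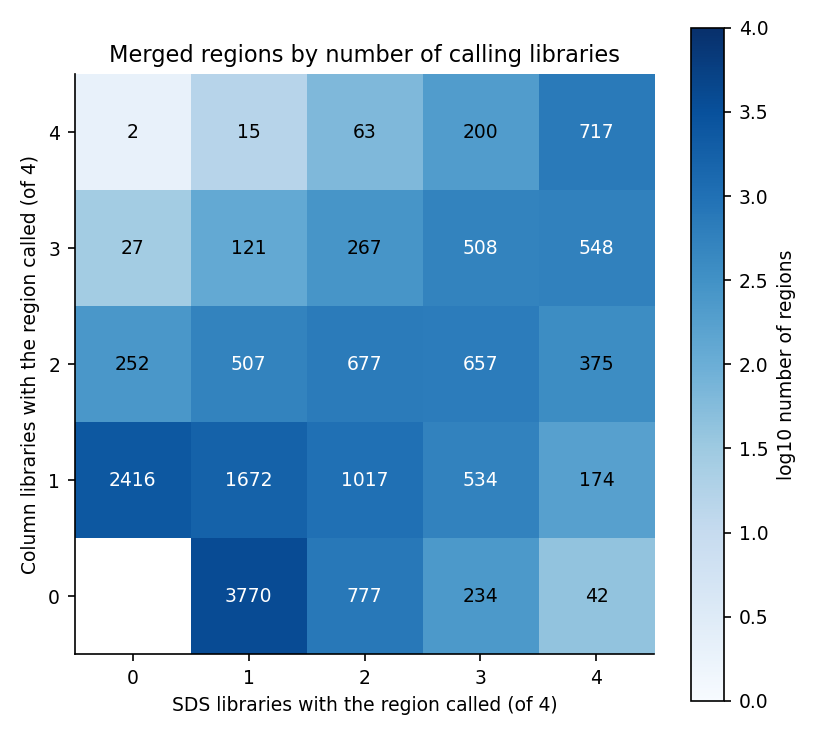
Number of merged regions by how many of the 4 SDS libraries (horizontal axis) and of the 4 column libraries (vertical axis) called them, with colour on a log10 scale. The corners hold 2 regions of column alone, 42 of SDS alone and 717 of all 8 libraries, and the largest cells are 3770 and 2416 regions of a single library.

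Of the 2 column-only regions, the first was chr7:8342986-8344462. It lay in introns of the noncoding genes ENSG00000229970 and ENSG00000272328, 566 bp from the start of the second, and 41620 bp from the nearest coding start, that of ICA1. Its signal was 5285, 3672, 1258 and 2514 in the column libraries of ab177178, ab4729, Active Motif and Diagenode. It was a benchmark region in 6 of 6 libraries, and all 6 of those had SDS extraction. The second was chr1:228748202-228749744 in the array of 5S ribosomal RNA genes, 372 bp from RNA5S2, with a signal of 3739, 3939, 1351 and 2056. These genes are near-identical copies, so the copy that a peak belongs to is uncertain. The array of 17 annotated copies held 6, 8, 9 and 9 peaks in the column lists and 2, 2, 7 and 3 in the SDS lists, more with column in 4 of 4 pairs. At 11 cycles it held 20, 0, 5 and 3 against 16, 5, 1 and 10, where column was higher in 2 of 4.

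Of the 42 SDS-only regions 30 (71.4%) lay at promoters, and their median width was 1840.5 bp. All 42 overlapped a benchmark region. Of all 15572 merged regions, 52.0% lay at promoters and 86.8% overlapped a benchmark region. For the 29 regions of at least 3 column libraries and no SDS library the shares were 72.4% and 100%. Neither trait was thus particular to the SDS-only regions. The SDS-only region with the largest signal, chr1:16275348-16279621, lay in an intron of ZBTB17, which encodes the zinc finger factor MIZ1, 24657 bp from its start. Its signal was 8829, 8324, 3001 and 12814 in the SDS libraries. A region of 2292 bp, chr5:175815027-175817318, held the starts of HIGD2A, a respiratory chain assembly factor, and NOP16, a nucleolar protein, with 4306, 3409, 2012 and 6168. The region of ZBTB5, a zinc finger gene, was chr9:37464540-37467065 with 3192, 6546, 2896 and 5177. A region 724 bp from RNU1-1, a U1 small nuclear RNA gene with near-identical copies elsewhere, was chr1:16839376-16841229 with 3261, 3589, 4285 and 3666. Others lay in introns of NADK, RIPK1 and SNRNP200, in an exon of SLC27A5, at the start of SRCAP, a chromatin remodelling ATPase, and 14419 bp from HEMGN, a gene of blood cells.

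The 11-cycle libraries, which had no part in choosing these regions, did not keep the split. The 42 SDS-only regions were called there in 45.2%, 73.8%, 71.4% and 61.9% of cases in the column libraries and in 57.1%, 71.4%, 26.2% and 28.6% in the SDS libraries. The column share was higher in 3 of 4 pairs, by 17.3 ± 26.5 points on average (SD, n = 4, exact sign-flip permutation p = 0.375). Over all 15572 regions the mean shares at 11 cycles were 37.2% with column and 29.9% with SDS extraction, the direction of the longer lists there. The 2 column-only regions were called less often in column than in SDS libraries at 11 cycles, by 37.5 ± 75 points (SD, n = 4, exact permutation p = 0.5). For the 29 regions of at least 3 column libraries the difference was 0.86 ± 4.34 points (SD, n = 4, exact permutation p = 1).

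At the level of genes, 7234 of 20163 protein-coding promoters (35.9%) were called in at least 1 of the 8 libraries and 424 in all 8. Column libraries called 4112, 3091, 1852 and 1719 promoters and SDS libraries 3895, 3927, 3059 and 4285, with a mean log2 ratio of -0.58 ± 0.59 (SD, n = 4, exact sign-flip permutation p = 0.25). It was -0.33 without Diagenode and -0.18 at equal list length. Within an antibody, 2880, 2162, 1175 and 1342 promoters were called with both. Those were 70.04%, 69.95%, 63.4% and 78.1% of the column promoters and 73.9%, 55.1%, 38.4% and 31.3% of the SDS promoters. Most promoters of a column list were thus also in the SDS list of its antibody, while the reverse held for ab177178 and ab4729 alone. More SDS than column libraries called 4077 promoters (20.2%), and more column than SDS libraries 1292 (6.41%).

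No protein-coding promoter was called in all 4 column libraries and no SDS library (0%), and 30 (0.149%) were called in all 4 SDS libraries and no column library. By rank of signal within the lists these were led by HIGD2A, NOP16, ZBTB5, SRCAP, ENSG00000254732, SELENOH, ANKRD12, CDCA3, USP5 and ANKRD34A. Here and below, the signal of a gene is that of the strongest peak at its promoter. SRCAP had a signal of 2629, 3645, 2605 and 4223 in the SDS libraries, and ANKRD12 of 3327, 2456, 1913 and 3126. CDCA3, a gene of mitotic entry, and USP5, a deubiquitinase, share a region with a summed signal of 2722, 5924, 1309 and 5160. SELENOH, a selenoprotein gene, and ENSG00000254732 share another with 4268, 2725, 1372 and 3332. At 11 cycles the promoters of SELENOH, ENSG00000254732, ANKRD12 and ANKRD34A were called in 4 of 4 column libraries, so they were not out of reach of column extraction. At equal list length 3 more SDS than column libraries called CDCA3, USP5 and ANKRD34A, in place of 4.

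Genes of the erythroid programme were recovered about equally with both extractions. Of the 18 erythroid transcription factors and globins, each looked at in 4 libraries, column extraction gave 38 of 72 possible calls (52.8%) and SDS extraction 41 (56.9%), and 3 genes were called in more SDS and 1 in more column libraries. Over all protein-coding genes the shares were 13.4% and 18.8%. GATA1, the master regulator of the lineage, had a signal of 4733, 5515, 1787 and 1714 with column and 3611, 6538, 1250 and 4359 with SDS extraction. NFE2 had 9001, 16346, 1405 and 2833 against 13394, 5952, 1927 and 18339. LYL1 and CBFA2T3 were likewise called in all 8 libraries. In each of these genes the ranges of the extractions overlapped, and the ab177178 and ab4729 column libraries were above the other 2 column libraries for GATA1, NFE2, LYL1 and CBFA2T3. LDB1, a cofactor of GATA1, was called in 2 SDS libraries and in no column library, but its difference was 0 at equal list length and with windows of 3 kb, and at 11 cycles it was called in 2 and 2.

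The fetal globin gene HBG1 was called in 4 column libraries, at 4423, 3572, 2184 and 1289, and in 3 SDS libraries, at 3630, 2759 and 2150, with no Active Motif call. It is nearly identical to HBG2, so reads of the pair may be exchanged, and the annotated start of HBG2 lies outside the globin cluster. The annotated start of HBE1 lies beside that of HBG2, so the counts of the list hold 3 column and 3 SDS calls of each of these genes from the same peaks. At equal list length the erythroid list gave 38 calls with column and 32 with SDS extraction. Of the other members with a marker role, TAL1 was called in 3 column and 4 SDS libraries, KLF1 in 3 and 3, LMO2 in 2 and 3 and GFI1B in 1 and 1.

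Genes of heme synthesis and iron gave 40 of 88 calls with column and 45 with SDS extraction, 40 and 37 at equal list length, and 51 and 41 at 11 cycles. All protein-coding genes gave 13.4% and 18.8% at 13 cycles, and 20.15% and 15.6% at 11 cycles. PPOX, a heme synthesis enzyme, and FTL, the ferritin light chain, were called in all 8 libraries. The signal of FTL was 9279, 4280, 4326 and 4771 with column and 12919, 6838, 3073 and 15514 with SDS extraction, so column was lower in 3 of 4 pairs. FLVCR1, a heme exporter, was called in 3 column libraries (3106, 1319 and 1155) and in 1 SDS library (3993, Diagenode). SLC25A37, the mitochondrial iron importer, was called in 2 and 4. Red cell surface and membrane genes gave 16 of 68 calls with column and 24 with SDS extraction, 16 and 17 at equal length, and 27 and 16 at 11 cycles. RHCE, a Rh blood group gene, was called in 3 SDS libraries and RHD, its near-identical neighbour, in 2, and neither in any column library. Reads of this pair may be exchanged, and at 11 cycles RHCE was called in 3 column libraries and 1 SDS library and RHD in none. Of 15 megakaryocyte and platelet genes only GP1BB was called at its outermost start, in 3 column and 3 SDS libraries. Inner starts of these genes were not looked at.

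Of the lists looked at, the immediate early genes had the widest gap in the share of calls. Of 15 AP-1 and immediate early genes, column libraries called 3, 4, 3 and 1 and SDS libraries 5, 8, 7 and 7, which gave 11 of 60 calls (18.3%) against 27 (45%). A median member was called in 0 column and 2 SDS libraries, and the median protein-coding gene in 0 and 0. SDS was ahead in every antibody, 8 genes were called in more SDS libraries and none in more column libraries. EGR1, a zinc finger factor induced within minutes of stimulation, had no column call and a signal of 2655, 1963, 1595 and 4010 in the SDS libraries. JUNB, a component of AP-1, had no column call and 2219, 1526 and 2318 in the SDS libraries of ab4729, Active Motif and Diagenode. DUSP1, a phosphatase that turns off MAP kinases, was called in 1 column library, at 2130 with Diagenode, and in 4 SDS libraries, at 3947, 3191, 1329 and 7068. In contrast JUND, another AP-1 component, was called in 3 column libraries, at 7419, 5174 and 5328, and in 4 SDS libraries, at 3639, 2499, 1485 and 8156.

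The gap in immediate early genes stayed at equal list length, with 11 calls against 25, where all protein-coding genes had 13.3% and 14.5%. It did not stay at 11 cycles. There the list gave 22 calls with column and 21 with SDS extraction, where all protein-coding genes had 20.15% and 15.6%, EGR1 was called in 3 column and 2 SDS libraries, and JUNB in 2 and 0. Without the Diagenode pair the 13-cycle counts were 10 and 20 of 45 possible calls (22.2% and 44.4%), where all protein-coding genes had 14.97% and 17.99%. Its gap is a description, since the list was one of several looked at.

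Genes used by all cells had more SDS than column calls at 13 cycles. Of 31 proteasome genes, column extraction gave 23 of 124 calls (18.5%) and SDS extraction 54 (43.5%), and 17 genes were called in more SDS and 2 in more column libraries. PSMC4 was called in all 8 libraries, whereas PSMA4, PSMA5 and PSMC6 were called in 4 SDS libraries and 1 column library each. Over all protein-coding genes the shares were 13.4% and 18.8%, with 20.2% of genes called in more SDS and 6.41% in more column libraries. At equal length the proteasome counts were 23 and 42 (18.5% and 33.9%), where all protein-coding genes had 13.3% and 14.5%. At 11 cycles the proteasome counts were 58 and 43. Splicing factors gave 44 and 71 of 124 calls, and 21 genes were called in more SDS and 3 in more column libraries. At equal length they gave 43 and 53, and at 11 cycles 77 and 52. Column was thus ahead in both lists at 11 cycles, as it was over all protein-coding genes there (20.15% and 15.6% of calls). Against the direction of the list at 13 cycles, SF3B3, a component of the splicing factor SF3b, had a signal of 2454, 2053 and 1838 in the ab177178, Active Motif and Diagenode column libraries and no SDS call. SRSF7 and SRSF9, splicing factors of the SR family, had 3 SDS calls each and no column call. At 11 cycles SRSF7 was called in 3 column and 2 SDS libraries. SRSF9 was called there in 1 column and 2 SDS libraries, and SF3B3 in 4 and 2, so these 2 genes kept their direction.

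Cytosolic ribosomal protein genes gave 70 of 220 calls with column and 102 with SDS extraction, 70 and 86 at equal length, and 104 and 96 at 11 cycles. The background for these lists is the 13.4% and 18.8% of all protein-coding genes, or 20.15% and 15.6% at 11 cycles, where column was ahead. RPL37 was called in all 8 libraries, at 9443, 5748, 2428 and 2371 with column and 12123, 2154, 2928 and 4613 with SDS extraction. DNA replication genes gave 27 and 43 of 124 calls, 27 and 32 at equal length and 49 and 31 at 11 cycles, with CDC45, a replicative helicase component, and POLE, the catalytic subunit of DNA polymerase epsilon, in all 8. CDC45 had a signal of 16734, 12149, 6784 and 5894 with column and 19515, 16027, 5513 and 14983 with SDS extraction. POLE had 11037, 16667, 4752 and 3767 against 6468, 6067, 3620 and 3416, and so was higher with column in 4 of 4 pairs. Writers, erasers and readers of histone acetylation gave 20 and 36 of 100 calls, 20 and 29 at equal length and 32 and 25 at 11 cycles. Among them BRD2, a bromodomain protein that binds acetylated histones, was called in all 8 libraries, HDAC6, a deacetylase, in 1 column and 4 SDS libraries, and KAT5, an acetyltransferase, in 3 SDS libraries only. At 11 cycles HDAC6 was called in 4 column and 4 SDS libraries, and KAT5 in 0 column and 2 SDS libraries.

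JAK-STAT and BCR-ABL1 signalling genes gave 30 of 76 calls with column and 43 with SDS extraction, 30 and 40 at equal length, and 39 and 35 at 11 cycles. Beside these, all protein-coding genes had 13.4% and 18.8% at 13 cycles, and 20.15% and 15.6% at 11 cycles. CISH, a STAT5 target, CRKL, an adaptor downstream of BCR-ABL1, and STAT5B were called in all 8 libraries. CRKL had 14451, 15618, 2872 and 2342 with column and 12640, 13010, 6697 and 17781 with SDS extraction, so that the Active Motif and Diagenode column libraries were low. SOCS2, another STAT5 target, was called in 1 column library, at 2517 with ab4729, and in 4 SDS libraries, at 6421, 3935, 2473 and 2170. Developmental homeobox and PAX genes gave 3 and 2 of 104 calls. Among the genes that the study used as qPCR controls, the positive control ZMYND8 was called in all 8 libraries. The positive controls ARHGAP22 and COX4I2 and the negative controls KLHL11 and SIGIRR were called in none. The promoters of ARHGAP22 and COX4I2 were also called in 0 of 6 benchmark libraries. Whether the regions amplified by qPCR lie in these promoter windows was not tested.

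**Figure D5:**
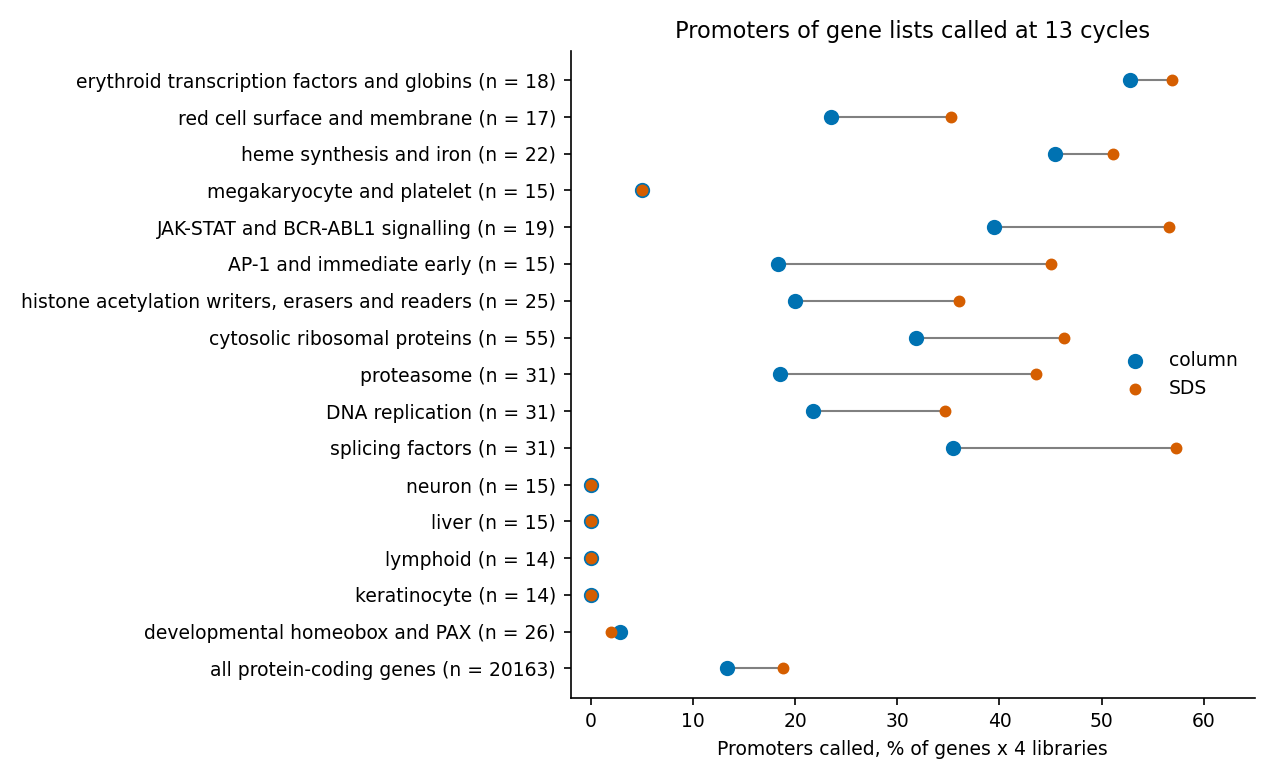
Share of possible promoter calls (percent of list genes times 4 libraries, horizontal axis) for each gene list at 13 cycles, with column in blue and SDS in orange joined by a line. The erythroid list lies at 52.8% and 56.9% and the immediate early list at 18.3% and 45%, against 13.4% and 18.8% for all protein-coding genes, and the 4 lists of other cell types lie at 0%.

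In the 717 regions called in all 8 libraries the signal itself could be compared region by region. After each library was centred on its median log2 signal, limma with the antibody as a block called 0 regions higher or lower with column extraction at an adjusted p under 0.05 (0% of 717). Unadjusted p-values were under 0.05 in 56 regions, and the smallest adjusted p was 0.164. The sign was the same in all 4 antibodies in 60 regions that were higher and 53 that were lower with column, and 9 regions differed by more than 1 on the log2 scale. For width the count was also 0 (0% of 717), with 40 regions at an unadjusted p under 0.05 and a smallest adjusted p of 0.772 in limma. The regions were narrower with column in 477 cases and wider in 240, and the median log2 width ratio was -0.13, 0.14, 0 and -0.62 for ab177178, ab4729, Active Motif and Diagenode. Requiring 6 of 8 libraries gave 2411 regions, of which limma called 1 higher and 1 lower.

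The region with the largest fall in limma was chr18:9014328-9018647, 84897 bp from the start of NDUFV2, at -1.34 ± 0.34 (SE, adjusted p = 0.164). Its summed signal was 7725, 2577, 1740 and 1429 with column and 14639, 6911, 4730 and 12948 with SDS extraction, lower with column in 4 of 4 pairs. Next was chr22:19157565-19163880, which lay over an exon of the noncoding gene ENSG00000289481 and 7654 bp from SLC25A1, at -1.19 ± 0.38 (SE). It rested largely on the Active Motif pair, at 1324 with column and 11333 with SDS extraction, and was -0.62 without it. The others were the shared start of TCP1, a chaperonin subunit, and MRPL18 (chr6:160209211-160212884, -1.15), the start of CSNK2B, a casein kinase subunit (chr6:31631256-31634795, -1.11), and that of SNAP29 and PI4KA (chr22:21211258-21214433, -1.06). None passed the adjusted threshold. With the maximum coverage of a peak in place of its summed signal, the log2 differences of these 5 regions were -0.60, -0.48, -0.52, -0.90 and -0.77 in that order.

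The largest rise was at chr19:15938917-15943676, where the noncoding genes UCA1, LINC01764 and ENSG00000288618 overlap, at 1.32 ± 0.34 (SE, limma adjusted p = 0.164). Its signal was 9841, 5743, 5557 and 2499 with column and 6419, 1841, 1884 and 2722 with SDS extraction, higher with column in 3 of 4 pairs before centring and in 4 of 4 after it. The GC-rich repeat by NEU4, a sialidase gene, was chr2:242743871-242749093 at 1.28 ± 0.35 (SE). There the signal was 21093, 19420, 14994 and 12869 against 5653, 6289, 8429 and 22952. The next were the start of POLE and PXMP2 (chr12:133263700-133266477, 1.09), a region 52778 bp from POTEA (chr8:43094235-43097517, 1.06) and a region 33931 bp from CREB3L1 (chr11:46263825-46265547, 1.00). The POTEA region lay 744040 bp from a long run of unknown bases in the build, and its difference was 0.57 without the Diagenode pair. By maximum coverage the UCA1, NEU4, POLE, POTEA and CREB3L1 regions differed by 0.27, 0.58, 1.02, 0.68 and 0.09 on the log2 scale.

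Such runs of at least 1 Mb, mostly centromeres, bordered the strongest and widest peaks of some libraries. Peaks within 1 Mb of them held 3.34%, 3.01%, 19.5% and 22.4% of the signal in the column libraries and 4.03%, 3.07%, 12.2% and 9.79% in the SDS libraries. Column was higher in 2 of 4 pairs, those of Active Motif and Diagenode. The 5 widest of the 717 regions all lay in this zone and held no gene, and the widest was chr10:42367600-42389626. Its signal was 20418, 18425, 113178 and 99566 with column and 38188, 15748, 86129 and 123400 with SDS extraction, and the Active Motif and Diagenode libraries were the high ones with both extractions. Whether reads were placed uniquely there was not tested. Without these peaks the mean log2 ratio of peak number was -0.51.

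Away from those runs, the widest region called in all 8 libraries was chr3:50636184-50649605, 13422 bp that held the starts of CISH and MAPKAPK3. Its signal was 45454, 33826, 9351 and 11357 with column and 36366, 10207, 8630 and 29988 with SDS extraction, higher with column in 3 of 4 pairs. The next were ZMYND8 (chr20:45980015-45990779), at 38703, 35592, 10230 and 11950 against 33216, 22656, 9120 and 35935, and the MIR142HG region (chr17:56407660-56417952), the host of a blood cell microRNA. The last 2 were distal, 39068 bp from ZBTB11 (chr3:101350401-101360622) and 56915 bp from DNAJB8 (chr3:128127921-128137685). In each of the 5 the Diagenode column library was lower than the Diagenode SDS library.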

How the data were processed

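CUT&Tag libraries of K562 cells were taken from the labels, 4 with column and 4 with SDS extraction at 13 cycles, and paired by antibody label. Per the labels and the study's methods, the authors trimmed reads (Trim Galore 0.6.6), aligned them to hg19 (Bowtie2 2.2.9), downsampled them to a shared number, removed duplicates (Picard 2.6.0) and called SEACR peaks on each library. The deposited lists give the summed and maximum fragment coverage (signal) of each peak, not scaled. Whether SEACR ran in its stringent mode was not settled here. SEACR keeps a set fraction of blocks, so list length moves with the number of covered blocks. The unique fragments left in each library after downsampling and duplicate removal are unknown.

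Chromosomes 1 to 22, X and Y were kept, and mitochondrial peaks were used only for their share of signal. Gene starts came from the GENCODE annotation of the build, with the outermost start of each gene. The 8 measures were compared with exact sign-flip permutation tests over pairs, and signal in shared regions with limma 3.58.1 (R 4.3.3) with Benjamini-Hochberg adjustment and the antibody as a block. P-values measure only the spread between these libraries, and intervals cover counting error only. Scripts used Python 3.11.15 and SciPy 1.17.1 and were tested on simulated data.

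Named genes were up to 4 members of each list called in most libraries, up to 3 ahead by at least 2 libraries with an extraction, up to 10 promoters per direction called with a single extraction, and those at the 5 widest and most changed regions. K562 markers, qPCR controls, the 2 and 10 leading extraction-only regions and HEMGN were also named, HEMGN after its values were seen. A few genes that the rule selects are not reported here. Members and lists were chosen with earlier results of these data known. Alternatives were equal list length, merging within 1000 bp, other windows, leaving out pairs, no pairing and leaving out peaks by assembly gaps, the last added after seeing the data, as were the 3 kb window for named genes and the gene lists at equal length or without Diagenode. Peaks called by MACS2 and the other lists of the series were not used.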

Additional observations from a re-analysis of the deposited data

Results flagged for a closer look

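Among the 4 SDS libraries, that of Active Motif stood apart in the share of peaks on H3K27me3 regions, at 8.48% against 4.68% to 4.94% in the others. Among the 4 column libraries, that of ab177178 stood apart in the number of distal peaks, at 3667 against 1479 to 1853. These were 2 of 32 groups of 4 libraries examined, and chance alone gives about 1 in 20.

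The share of a list's signal held by its 100 strongest peaks moved in opposite directions at the 2 cycle numbers. At 13 cycles it was 8.39%, 10.5%, 28.9% and 33.2% with column and 7.16%, 8.57%, 25.4% and 15.6% with SDS extraction for ab177178, ab4729, Active Motif and Diagenode, higher with column in 4 of 4 pairs (6.07 ± 7.72 points, SD, n = 4). At 11 cycles it was higher with column in 0 of 4 (-7.71 points, with an SD of 5.4). The difference between the cycle numbers was 13.8 points, with p = 0.13 in the exact sign-flip permutation test, the smallest that 4 antibodies allow, and it was 1 of 26 measures compared. Without peaks within 1 Mb of long gaps in the build, the 13-cycle difference was 4.23 ± 6.27 points and held in 3 of 4 pairs. The 11-cycle difference was then -7.41 ± 6.77 points and above 0 in 1 of 4, so the directions were no longer opposite in every antibody. Shorter lists hold more of their signal in a fixed number of peaks, and the column lists were shorter in 3 of 4 pairs at 13 cycles and the SDS lists in 3 of 4 at 11 cycles. The part of list length was not tested.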

How the results depend on the processing

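With 4 pairs no paired test could pass, so a kept direction says little. The mean log2 ratio of peak number stayed negative under every alternative run, and without the pairing, that is with no replicate block, it was also -0.48 (exact permutation over 70 splits, p = 0.171). Median width had no stable direction: its log2 ratio was -0.16 at equal list length, -0.0033 with peaks within 1000 bp merged, -0.0252 in the stronger part of each list, and -0.11 to 0.15 when a pair was left out. Leaving out a pair gave -3.53 to 1.43 points for the promoter share, -2.32 to 1.02 for the benchmark share (0.23 with regions of all 6 benchmark libraries) and -0.13 to 0.0133 for the width difference between cycle numbers; the positive value came without Diagenode in each. Counts of regions called with a single extraction depended most on the rule. For column they were 6 at equal list length, 0 with merging, 29 with at least 3 of 4 libraries and 63 with both equal length and at least 3. For SDS they were 10, 39, 276 and 90, and in total 16, 305 and 153 at equal length, with at least 3, and with both. With at least 3 libraries the 11-cycle difference of the column-only regions was 0.86 points. Limma called 2 regions where 6 of 8 libraries were required. Of the other values of the main comparisons 97 kept direction and side. Equal list length changed the number of libraries ahead for 17 of the 35 extraction-dependent named promoters, and none reversed. The cause of these changes was not tested. An unknown number of unique fragments limits what an absent peak means: it was not called, which does not show that the mark is absent.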
